A study of Homo sapiens with 4 samples.

Results

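The genes of the core spliceosome, the DDX and DHX RNA helicases and the machinery that forms the 3′ ends of RNAs were examined in HeyA8 ovarian cancer cells and in 3 lines derived from them. Members were chosen by gene symbol (SF3A, SF3B, SNRP, SNRNP, PRPF, U2AF, U2SURP, LSM, DDX, DHX, CPSF, CSTF, INTS, NUDT21 and PCF11), and 113 of the 9885 genes listed (1.14%) carried such a symbol. The symbol rule itself holds no measured value, but it was set with earlier results of these data known. The value analyzed was the number of events that the authors recorded for a gene in a library, a whole number from 0 to 32. What kind of event was counted, and by which program, is not given in the sources used here, and an event number is not an expression level.

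The 4 lines were sequenced as 1 library each, so no difference between lines below has a replicate check and none was tested. A8 is the parental HeyA8 line, itself derived from HEY cells. A8i is HeyA8 with stable silencing of ECM1, an extracellular matrix protein, by a short hairpin RNA delivered with a lentivirus and selected with puromycin. The other lines were made from A8i by stable expression of a tagged cDNA, that of the secreted isoform ECM1a in A8i-A and that of ECM1b, which lacks an internal exon, in A8i-B. Both therefore carry the hairpin as well, and they went through a further selection (GFP sorting, zeocin or hygromycin). A library from cells with a scrambled hairpin or an empty vector was not analyzed here, and whether a line is a clone or a pool is not given in the sources used here. The silencing thus cannot be told apart from infection and selection, nor an isoform from the line that carries it. ECM1 itself had 2 events in each of the 4 libraries, a number that does not check the silencing. Among the epithelial and ovarian markers, PAX8 had 7 to 11 events and KRT8 5 to 7, EPCAM was at 0 in all 4 libraries, and KRT19, CDH1 and MUC16 were not among the genes listed. Of 12 markers of leukocytes, endothelium and fibroblasts, 2 were listed, with at most 1 event in a library.

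The spliceosome removes introns by assembling anew on each pre-mRNA: the U1 particle marks the 5′ splice site, the U2 particle and U2AF mark the branch point and the 3′ splice site, and the U4/U6.U5 tri-snRNP then joins and is rearranged by helicases into the catalytic form. Cleavage and polyadenylation factors cut the transcript and add its tail, and the Integrator complex cuts small nuclear RNAs and short transcripts at promoters. Many of these genes are themselves alternatively spliced, often into RNAs with a premature stop codon or a retained intron that are not translated into full protein.

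The symbols covered several roles. There were 6 genes of the U1 particle and 5′ splice site, 10 of the U2 particle and 3′ splice site, 7 of the Sm ring shared by the spliceosomal particles, 10 of the tri-snRNP and its activation, 3 of the U11/U12 particle of minor introns, 9 LSM genes, 15 helicases of splicing and mRNA export, 14 helicases of ribosome assembly, 16 helicases with other roles, 10 cleavage and polyadenylation factors and 12 Integrator subunits. The 1 remaining gene, DDX11L2, is a pseudogene that was given no role. The helicases of ribosome assembly and of other roles are thus no part of the core spliceosome, although the symbol rule took them in. In the GENCODE v44 annotation on GRCh37, 110 of the 113 genes are protein-coding. The 3 others are the pseudogenes DDX11L2 and DDX12P and the entry U2AF1L5, which the annotation calls an artifact and places on the same coordinates as U2AF1 (chr21:44513066-44527680). By current symbol, 141 annotated coding genes match the rule and 112 of them (79.4%) were listed, against 9050 of 20175 coding genes in all (44.9%). The other 29, among them NUDT21, SF3A1, SF3A3, SF3B4 and PRPF6, were not analyzed here.

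Sequences are shown for the gene with the most events and for a pair of near-identical genes, since both bear on what an event can be. CPSF3L (INTS11 in GENCODE v44, ENSG00000127054) encodes the endonuclease of the Integrator complex and lies on the reverse strand at chr1:1246965-1260067 of GRCh37. The annotation gives it 49 transcripts, 19 of them with a retained intron and 10 subject to nonsense-mediated decay, with 44 different introns and 11 cassette exons, meaning exons that some transcripts skip. The files do not say which of these alternatives were counted. The 2 cassette exons below are printed 5′ to 3′ on the transcribed strand with 15 nt of intron on either side, and the capitals mark the AG and GT dinucleotides next to the exon.
CPSF3L 35-nt exon, chr1:1250769-1250833: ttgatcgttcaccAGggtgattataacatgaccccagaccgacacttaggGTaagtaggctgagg
CPSF3L 65-nt exon, chr1:1249666-1249760: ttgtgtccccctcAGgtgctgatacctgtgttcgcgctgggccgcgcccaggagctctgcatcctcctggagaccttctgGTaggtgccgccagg
The exon of 35 nt is present in 20 annotated transcripts and skipped in 2, and that of 65 nt is present in 16 and skipped in 2. Neither length is a multiple of 3, so that skipping either exon shifts the reading frame where the whole exon is coding. In 5 annotated coding transcripts for the 35-nt exon and 4 for the 65-nt exon, the exon does not lie wholly within the coding sequence.

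DDX11, a DNA helicase of chromosome cohesion at chr12:31226794-31257733, and its pseudogene copy DDX12P at chr12:9571269-9600825 are shown because some reads of one can be placed on the other. Over 2718 aligned bases of a transcript of each, 98.42% were identical, and the longest identical run was 284 nt. A stretch of 120 nt around 2 of the differences, which are in capitals, is printed 5′ to 3′ from the annotated transcripts.
DDX11, bases 1189 to 1308 of DDX11-201: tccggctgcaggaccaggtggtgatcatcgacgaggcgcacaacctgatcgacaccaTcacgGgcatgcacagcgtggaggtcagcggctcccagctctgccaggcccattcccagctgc
DDX12P, bases 1283 to 1402 of DDX12P-201: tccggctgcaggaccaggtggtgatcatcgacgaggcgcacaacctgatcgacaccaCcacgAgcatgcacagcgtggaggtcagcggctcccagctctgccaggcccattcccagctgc

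These genes had more events per gene than the other genes listed. Their total was 358 in A8 (95% exact Poisson interval 321.9 to 397.1), 315 in A8i (281.2 to 351.8), 334 in A8i-A (299.1 to 371.8) and 330 in A8i-B (295.4 to 367.6). All intervals given here treat single events as independent, and counting error is all that they cover. The mean was 2.958 events per gene and library, against 2.319 for all other genes. An event in all 4 libraries was recorded for 86 of them (76.1%), against 60.6% of all genes listed. At least 1 event was found for 107 genes (94.69%, exact binomial interval 88.8 to 98.03) in A8, 96 (84.96%, 77.01 to 90.99) in A8i, 96 in A8i-A and 99 (87.61%, 80.09 to 93.06) in A8i-B, against 82.06%, 73.62%, 78.82% and 81.55% of the other genes. The share was thus above that of the other genes in each library, although the intervals for A8i-A and A8i-B include the other genes' value. In bulk RNA, fewer cells of a type and less RNA per cell cannot be told apart. SNRNP27, of the tri-snRNP, was listed at 0 throughout.

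The events of the 113 genes were concentrated in few of them, a skew that was not measured for all genes listed. The 19 genes with at least 20 events over the 4 libraries held 610 of the 1337 events (45.6%), whereas the median gene had 8 events over the 4 libraries (6 for all genes listed) and a median of 2 in each library. The map of events by role shows this spread: most rows are dark and uniform, and in most roles a few genes stand out. In the U11/U12 group none does.

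**Figure D1:**
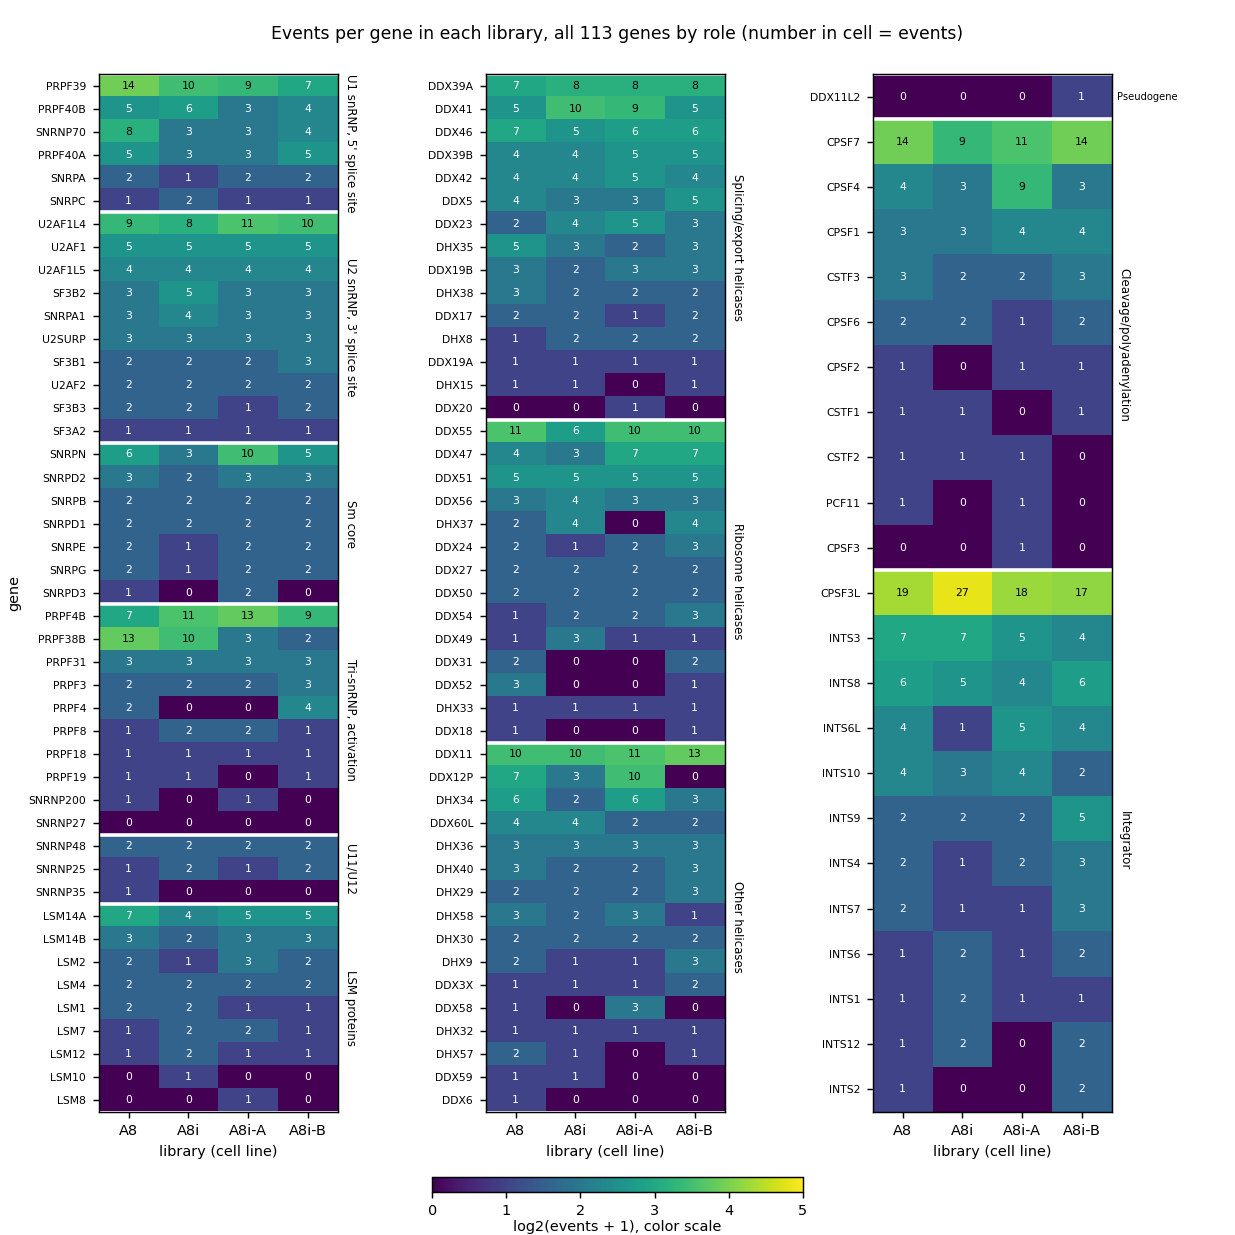
Events per gene (number in each cell, color on a log2(events + 1) scale) in the A8, A8i, A8i-A and A8i-B libraries for all 113 genes, grouped by role and sorted by their sum within a role. CPSF3L holds the highest number (27 in A8i), and 19 genes hold the same number above 0 in all 4 libraries.

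Where a gene or group is given with 4 numbers below, they are its events in the order A8, A8i, A8i-A, A8i-B. Among genes of the U1 particle and 5′ splice site, PRPF39 and SNRNP70 had their highest numbers in A8. PRPF39, a U1-associated protein, had 14, 10, 9 and 7 events. SNRNP70, the U1 protein that binds the U1 RNA and contacts SR proteins, had 8, 3, 3 and 4. PRPF40B, a protein that bridges the splice sites, had 5, 6, 3 and 4, which is lower in the 2 lines with an ECM1 cDNA than in the 2 others. The group as a whole had 35, 25, 21 and 23 events, so that A8i held 71.4% of the number in A8 (95% exact interval 41.0 to 122.8) and A8i-A 60.0% (33.2 to 106.0). Both intervals include 100%. For SNRNP70 itself A8i held 37.5% of the number in A8 (6.4 to 156.2).

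The genes of the U2 particle and 3′ splice site had nearly the same total in each library, with 34, 36, 35 and 36 events. U2AF1, the U2AF subunit that reads the AG at the end of the intron, had 5 events in each library. U2AF1L4, a relative of it, had 9, 8, 11 and 10, the most in the group. U2AF1L5 had 4 in each library, but all of its annotated sequence is found in U2AF1, so its value and that of U2AF1 may not be separate measurements. The next 6 genes of the group were chosen after their values had been seen. U2AF2, which binds the pyrimidine tract, had 2 events in each library, U2SURP 3 and SF3A2 1. SF3B1, which holds the branch point and is often mutated in blood cancers, had 2, 2, 2 and 3. SF3B2 had 3, 5, 3 and 3 and SNRPA1 3, 4, 3 and 3, each with its highest number in A8i.

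In the Sm ring, SNRPN had the widest range. SNRPN, the Sm protein made from the imprinted Prader-Willi region, had 6, 3, 10 and 5 events. SNRPD3 had 1, 0, 2 and 0. Both had higher numbers in A8 and A8i-A than in A8i and A8i-B. SNRPB had 2 events in each library, and SNRPD2 had 3, 2, 3 and 3. The ring as a whole had 18, 11, 23 and 16 events. A8i held 61.1% of the number in A8 (26.1 to 136.6), and A8i-A held 209.1% of the number in A8i (97.9 to 475.1), the ratio farthest from 100% among the role groups, with 100% still inside the interval. Of the 100-base stretches of annotated SNRPN transcripts, 24.33% are also found in another gene, most often SNURF (13.9%), whose exons overlap it, so events of the 2 genes may have been counted under either name.

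The tri-snRNP group held PRPF38B, whose number in A8 and A8i was several times that in the other lines. This gene encodes a spliceosomal protein with a PRP38 domain, and it lies at chr1:109234932-109245550 on the forward strand. PRPF38B had 13 and 10 events in A8 and A8i, against 3 and 2 in A8i-A and A8i-B. The 2 lines that carry an ECM1 cDNA were thus well below the others, and the numbers of A8i-A and A8i-B lay 1 event apart. A8i-A held 23.1% (4.2 to 84.0) and A8i-B 15.4% (1.7 to 68.0) of the number in A8. Relative to A8i, the interval was 2.1 to 93.9% for A8i-B, and A8i-A held 30.0% (5.3 to 116.5), with 100% inside its interval. Between A8i and A8, the numbers differed by 3 events (76.9%, 30.2 to 189.9). PRPF38B has 8 annotated introns and 5 annotated transcripts, none with a retained intron, and its events came to 8.75 per library for every 10 introns, the highest such value of the 113 genes. The 13 events in A8 exceed its annotated introns, and what they are is not given in the sources used here.

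PRPF38B and the pseudogene DDX12P were the 2 genes among the 113 (1.77%) whose counting interval left out 100% in any of the 6 pairs of libraries, near the 1.6% of all genes listed. For PRPF38B this was so in 3 pairs, A8i-B vs. A8i, A8i-A vs. A8 and A8i-B vs. A8, where 0.091%, 0.324% and 0.223% of all genes were lower by this rule. For DDX12P it was so in A8i-A vs. A8i-B, where 0.121% of all genes were higher, and in A8i-B vs. A8. Few genes have enough events to pass the rule, and the pairs share libraries, so that these are not separate observations. For PRPF38B, the ECM1 cDNA and the further selection that A8i-A and A8i-B went through cannot be told apart.

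The rest of the tri-snRNP group differed little or moved the other way. PRPF4B, a kinase that phosphorylates tri-snRNP proteins, had 7, 11, 13 and 9 events, with its lowest number in A8. PRPF31, whose mutations cause retinitis pigmentosa, had 3 in each library. PRPF4, a U4/U6 protein, had 2, 0, 0 and 4. PRPF8, the scaffold of the catalytic center, had 1, 2, 2 and 1, and SNRNP200, the helicase that unwinds U4 from U6, had 1, 0, 1 and 0 (both chosen after their values had been seen). The whole group had 31, 30, 25 and 24 events, and all ratios between libraries had intervals that include 100%. In the U11/U12 group, SNRNP48 had 2 events in each library, SNRNP25 had 1, 2, 1 and 2, and SNRNP35 had 1 in A8 and 0 in the others.

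The LSM genes had 18, 16, 18 and 15 events. LSM14A, a protein of cytoplasmic processing bodies, had 7, 4, 5 and 5, and its relative LSM14B had 3, 2, 3 and 3. LSM2, part of the ring on U6 RNA, had 2, 1, 3 and 2. All 3 had their lowest number in A8i. LSM10, a protein of the U7 particle that processes histone mRNAs, had 1 event in A8i and 0 in the other libraries.

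**Figure D2:**
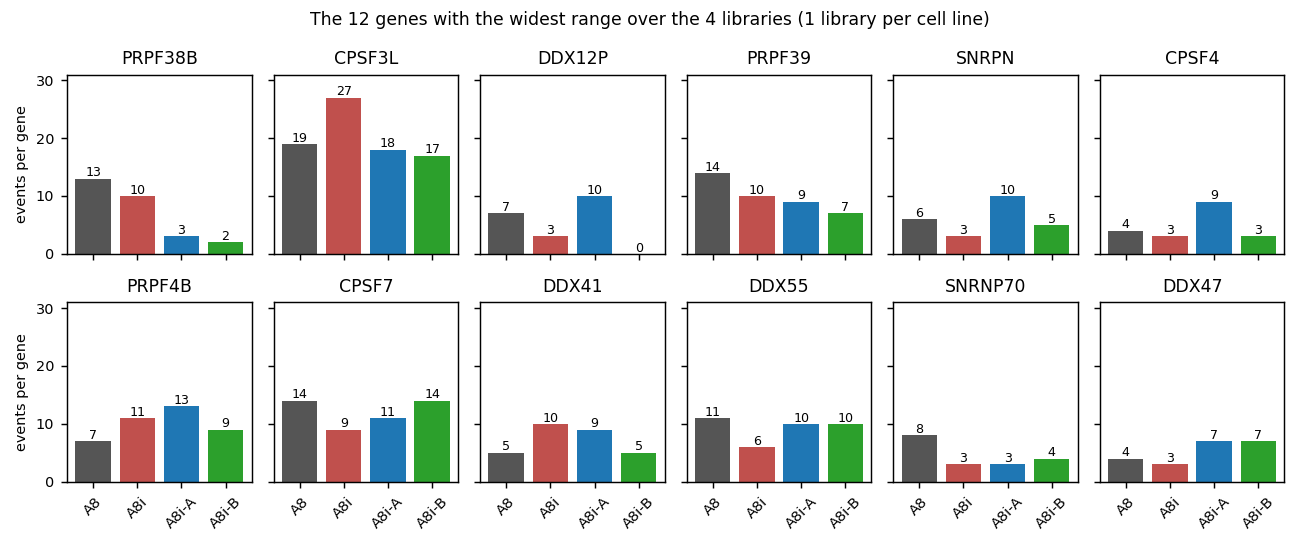
Events per gene (bars from 0; no error bars, as each line has 1 library) in A8, A8i, A8i-A and A8i-B for the 12 genes with the widest range over the libraries. PRPF38B has 13 and 10 events in A8 and A8i but 3 and 2 in A8i-A and A8i-B, CPSF3L peaks at 27 in A8i, and DDX12P goes from 10 in A8i-A to 0 in A8i-B.

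The helicases of splicing and mRNA export had 49, 51, 53 and 50 events in all, near the same number in each library. DDX41, a helicase of the late spliceosome whose germline mutations predispose to myeloid cancers, had 5 events in A8 and 10 in A8i, with 9 in A8i-A and 5 in A8i-B. A8i and A8i-A were thus above A8 and A8i-B, although the interval of A8i relative to A8 ran from 62.3 to 745.7%. DDX39A, which loads export factors onto mRNA, had 7, 8, 8 and 8. DDX46, which acts when U2 binds the branch point, had 7, 5, 6 and 6. DDX23, which releases U1 from the 5′ splice site, had 2, 4, 5 and 3, and so had its lowest number in A8.

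Helicases of ribosome assembly had 40, 33, 35 and 45 events. DDX55, which acts on the large subunit, had 11, 6, 10 and 10 events. DDX47 had 4, 3, 7 and 7, although 31.28% of its annotated 100-base stretches are also found in the overlapping gene APOLD1. In both genes A8i was lowest. DDX51 had 5 in each library. In this group 4 genes were at 0 in a library and above it in another. DDX52 had 3, 0, 0 and 1, DDX31 had 2, 0, 0 and 2, DHX37 had 2, 4, 0 and 4, and DDX18, chosen after its values had been seen, had 1, 0, 0 and 1. DDX49 had 1, 3, 1 and 1, the highest in A8i.

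The helicases with other roles had 49, 35, 47 and 37 events. These totals include the pseudogene DDX12P, with 10 of the 47 events in A8i-A and 0 of the 37 in A8i-B. The group's ratios depend on it and were not computed without it. The gene with the most, DDX11, had 10, 10, 11 and 13 events. Its pseudogene copy DDX12P had 7, 3, 10 and 0. DDX11 was therefore even across libraries whereas DDX12P ran from 10 in A8i-A to none in A8i-B. DDX12P and DHX37 were the 2 genes with at least 2 events in 3 libraries and 0 in the other. The aligned bases of the pair were 98.42% identical, but fewer of their 100-base stretches are found unchanged in another gene. These were 33.81% for DDX12P and 8.25% for DDX11, and for both the other gene was most often DDX12B. A share of the events listed for DDX12P may belong to DDX11 or to other copies, and this was not tested. DHX34, a factor of nonsense-mediated decay, had 6, 2, 6 and 3. The sensors of viral RNA DDX58 (RIG-I) and DHX58 (LGP2) had 1, 0, 3 and 0 events and 3, 2, 3 and 1 events. Both were highest in A8i-A or tied there, and 40.81% of the annotated 100-base stretches of DDX58 are found in another annotated gene as well. DHX57 had 2, 1, 0 and 1, and DDX59 had 1, 1, 0 and 0.

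The cleavage and polyadenylation factors had 30, 21, 31 and 28 events, with the lowest number in A8i (70.0% of A8, 38.1 to 126.4). CPSF7, a subunit of cleavage factor I, had 14, 9, 11 and 14 events. CPSF4, the zinc-finger protein that reads the polyadenylation signal, had 4, 3, 9 and 3. Its number in A8i-A was 300.0% of that in A8i and in A8i-B alike (74.9 to 1722.8). CPSF1, the largest subunit of the same complex, had 3, 3, 4 and 4. CSTF2, which binds downstream of the cut, had 1, 1, 1 and 0. The nuclease CPSF3 had 1 event in A8i-A and 0 elsewhere, and PCF11, which ends transcription, had 1, 0, 1 and 0 (both chosen after their values had been seen).

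Integrator had 50, 53, 43 and 51 events in its 12 subunits, of which CPSF3L held 19, 27, 18 and 17. CPSF3L ranked first of all 9885 genes in A8i, which was known when the genes were chosen, and 11th, 13th and 21st in A8, A8i-A and A8i-B. Its number in A8i was 142.1% of that in A8 (76.1 to 270.4), and A8i-A and A8i-B held 66.7% (34.6 to 125.6) and 63.0% (32.2 to 119.8) of the number in A8i. All 3 intervals include 100%. Without CPSF3L, the other 11 subunits had 31, 26, 25 and 34 events. INTS3 had 7, 7, 5 and 4, and INTS8 had 6, 5, 4 and 6. INTS6L, a relative of the subunit INTS6, had 4, 1, 5 and 4, with its lowest number in A8i. INTS2 had 1, 0, 0 and 2 and INTS12 had 1, 2, 0 and 2. INTS9, the inactive partner of CPSF3L in the cutting module, was chosen after its values had been seen and had 2, 2, 2 and 5. The plot of the 12 genes with the widest range shows CPSF3L beside the others.

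To ask whether silencing changed the events of these genes, A8i was compared with A8. The members held 88.0% of the events in A8 (75.4 to 102.7), and all other genes 83.7% (82.2 to 85.3). The members' interval includes both 100% and the value of the other genes. As a share of the library total the members came to 1.534% in A8i and 1.46% in A8, so the direction of the difference turns when the lower total of the A8i library is taken into account. By gene, 47 had fewer events in A8i (41.6%; 38.5% of all genes), 22 had more (19.5%; 19.7% of all genes) and 44 had the same number, a split close to that of all genes listed. A gene was called when log2 of (events + 1) differed by at least 1, which is 2-fold on that scale. Called lower were 16 of 113 genes (14.2%), with 20.2% of all genes listed, and called higher were 2 (DDX49 and LSM10, 1.77%), with 8.62% of all genes. Of the 16, 9 had 1 event in A8 and 0 in A8i. Among the 16, the 5 lower by at least 3 events were SNRNP70, DHX34, DDX12P, INTS6L and DDX52. Genes that were not called could differ by as many events, here and in the pairs below. With events scaled to the mean library total, 5 were lower (4.42% against 7.17% of all genes) and 3 higher (2.65% against 8.95%). The 1 was added after scaling. A single event against 0 therefore passed only where it was in A8i or A8i-A, and the 9 genes with 1 event in A8 and 0 in A8i dropped out. This holds for all scaled counts below, so part of their change comes from the rule itself.

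For the effect of ECM1a, A8i-A was compared with A8i. Members held 106.0% of the number in A8i (90.6 to 124.1) and all other genes 110.6% (108.5 to 112.7). The 2-fold rule gave 15 genes higher (13.3%; 18.1% of all genes) and 10 lower (8.85%; 11.1% of all genes). Of the 15 called higher, 7 differed by at least 3 events: SNRPN, CPSF4, DDX12P, DDX47, DHX34, INTS6L and DDX58. Of those lower, PRPF38B and DHX37 did. The members' shares are below those of all genes in both directions. As a share of the library total, the members' ratio was 96%, on the other side of 100%.

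For ECM1b, A8i-B held 104.8% of the events in A8i (89.5 to 122.6), with 118.2% (116.0 to 120.5) for all other genes. Higher were 14 genes (12.4%; 20.4% of all genes) and lower 6 (5.31%; 9.21% of all genes). Among the genes called, differences of at least 3 events were in INTS6L, DDX47, PRPF4 and INTS9 on the higher side and in PRPF38B and DDX12P on the lower. After scaling, 4 genes were higher (7.32% of all genes) and 7 lower (9.5%), and the members' ratio as a share of the library total was 88.8%, so that the direction turned with the scaling.

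The isoforms were set against each other in A8i-A vs. A8i-B. Here members had 101.2% (86.7 to 118.2), and all other genes 93.5% (91.8 to 95.2). Higher in A8i-A were 11 genes (9.73%; 11.7% of all genes) and lower 15 (13.3%; 16.2% of all genes). After scaling, these were 11 (9.73% against 11.7% of all genes) and 5 (4.42% against 5.56%). Of the genes called before scaling, those at least 3 events higher were CPSF4, DDX12P and DDX58, and those at least 3 events lower were DHX37, INTS9 and PRPF4. Relative to A8, A8i-A had 6 genes higher (5.31%; 11.3% of all genes) and 17 lower (15%; 16.2% of all genes). After scaling, it had 6 (5.31% against 11.3% of all genes) and 7 (6.19% against 5.48%). A8i-B had 3 higher (2.65%; 13% of all genes) and 12 lower (10.6%; 13.8% of all genes). After scaling, it had 0 (against 4.3% of all genes) and 2 (1.77% against 4.34%). In A8i-B vs. A8, the members held 92.2% (79.1 to 107.4) and the other genes 99.0% (97.2 to 100.8). In A8i-A vs. A8, they held 93.3% (80.1 to 108.6). The plot of total events by role gives each group's ratio in the 4 main pairs, all with intervals that cross 100%.

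**Figure D3:**
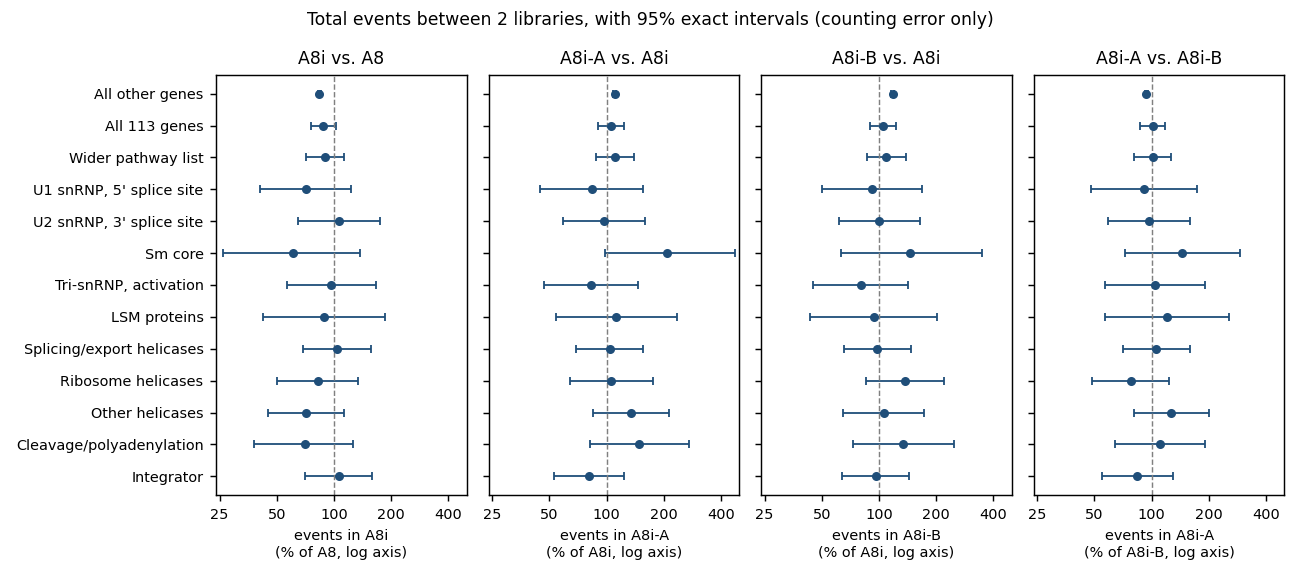
Total events in 1 library as a percent of another (log axis) for all other genes, all 113 genes, a wider list of splicing and 3′ end genes and 10 role groups, in 4 pairs of libraries; points are ratios, bars are 95% exact intervals for counting error, and the dashed line is 100%. The bars of the 113 genes and of every role group shown reach across 100%, whereas those of all other genes, which hold at least 20220 events a library, do not. The other helicases include the pseudogene DDX12P.

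Orders of the 4 libraries that the design singles out were counted next. In 10 of 113 genes (8.85%; 7.45% of all genes listed), A8 and A8i-A both had more events than A8i and A8i-B: SNRPN, SNRPD3, CPSF4, PCF11, SNRNP200, DHX34, DHX58, DDX58, DDX12P and INTS10. The reverse order was seen in 4 (3.54%; 4.79% of all genes), namely DHX37, INTS12, INTS6 and SNRNP25. A8i was below each of the other 3 libraries in 19 genes (16.8%; 14.6% of all genes), including CPSF7, DDX55, DDX47, SNRPN, U2AF1L4 and LSM14A. It was above them in 11 (9.73%; 8.87% of all genes), including CPSF3L, DDX41, SF3B2 and PRPF40B. Scaling to the mean library total gave 13 genes (11.5% against 9% of all genes listed), 17 (15% against 13%), 18 (15.9% against 14.1%) and 49 (43.4% against 37.3%) for these 4 orders. Scaling also breaks ties, and A8i, with the smallest total, then comes out highest. All 19 genes with the same number above 0 in every library were thus among the 49. How often A8i was above the others after scaling was therefore set in part by the scaling itself.

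Many genes had the same number in every library. In 19 of the 113 (16.8%, against 13.6% of all genes listed), the number was above 0 and equal in all 4. These were DDX51 and U2AF1 with 5 events, U2AF1L5 with 4, PRPF31, U2SURP and DHX36 with 3, and 13 genes with 2 or 1. In 67 of the 113 genes the numbers differed by at most 1 event. That count was not made for all genes listed, so it does not set the 113 genes apart. The variance over the 4 libraries divided by the mean averaged 0.508 (0.651 for all genes), where independent counts around a common level would average 1. Events of single genes were thus less spread on average than independent counts, and intervals for single genes, which assume such counts, are on average too wide. This does not extend to the intervals of totals and of their ratios, for which no such value was computed. An interval that includes 100% does not show that 2 lines had the same level.

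The number of events went with annotated gene structure. Over the 110 coding genes, the sum of events over the libraries had a Spearman correlation of 0.46 with the number of annotated transcripts, 0.407 with transcripts with a retained intron, 0.371 with those subject to nonsense-mediated decay, 0.34 with introns and -0.034 with the length of the longest transcript. Over all 9050 coding genes listed, the values were 0.476, 0.349, 0.3, 0.33 and -0.037. The correlations are across genes, which are not independent replicates, and the annotation partly rests on similar data. Genes with at least 20 events had a median of 25 introns and 12 transcripts, and the others 20 and 8. The scatter of events against transcripts shows the exceptions: PRPF4B had 40 events over the libraries with 9 transcripts, whereas DDX3X had 5 with 69.

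**Figure D4:**
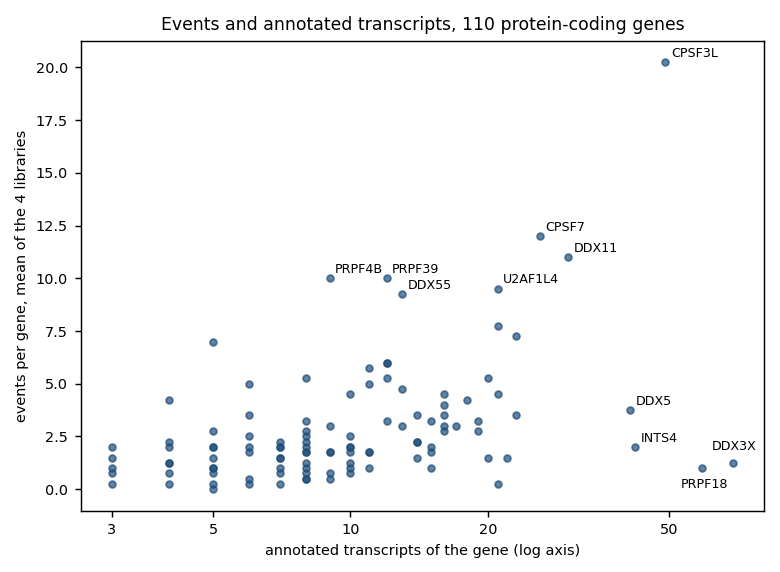
Mean events per gene over the 4 libraries against annotated transcripts in GENCODE v44 (log axis) for the 110 protein-coding genes, each point a gene. CPSF3L has the most events with 49 transcripts, and DDX3X and PRPF18 have few events with 69 and 59.

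Genes of the same pathway that the symbols leave out showed similar ratios. Of a list of 84 such genes, 66 were among the genes listed, and 44 of them (66.7%) had an event in all 4 libraries. They had 160, 143, 158 and 156 events. A8i held 89.4% of the number in A8 (70.8 to 112.7), A8i-A 110.5% of that in A8i (87.6 to 139.5), A8i-B 109.1% of that in A8i (86.4 to 137.9) and A8i-A 101.3% of that in A8i-B (80.7 to 127.2). By the 2-fold rule, 6 were higher (9.09%; 8.62% of all genes) and 8 lower (12.1%; 20.2% of all genes) in A8i vs. A8. In A8i-A vs. A8i, 10 were higher and 10 lower (15.2% each; 18.1% and 11.1% of all genes). The numbers were 9 and 9 (13.6% each; 20.4% and 9.21% of all genes) for A8i-B vs. A8i, and 12 and 12 (18.2% each; 11.7% and 16.2% of all genes) for A8i-A vs. A8i-B. The cyclophilin PPIL3 had the highest numbers, with 7, 7, 12 and 12 events, so that both cDNA lines were above A8 and A8i, the reverse of PRPF38B. SYMPK, the scaffold of the cleavage complex, had 6 in each library. PPIL2 had 7, 1, 3 and 7, and the Integrator subunit VWA9 had 4, 1, 6 and 7. These 4 genes were chosen after their values had been seen.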

How the data were processed

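The authors extracted total RNA with TRIzol from 4 human cell lines, sequenced 1 library per line as read pairs on an Illumina HiSeq, trimmed with Trim Galore, checked with FastQC, mapped with TopHat to hg19 and used Cufflinks 2.2.1 (tools also in the submitters' processing notes, which list GRCm38, a mouse build, for these human cells). The deposited values used here are whole numbers of events per gene (unit: other). They are not read counts, and event type, caller and filters are not given in the sources used here. The paper gives a range for the amount of sequence obtained, but no read depth for each single library.

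Members and lists were chosen with earlier results of these data known. Roles came from textbook knowledge. Genes named are the 3 with the most events in each role, the 5 highest and 5 lowest in each of the 4 main pairs, those with at least 2 events in 3 libraries and 0 in the other, and CPSF3L. Other names were chosen after values were seen. Totals got exact Poisson intervals, and ratios and shares exact Clopper-Pearson intervals at 95%. Per-gene differences used a pseudocount of 1 and a 2-fold limit, and no test was made. Code was tested on simulated data. Gene IDs were joined to GENCODE v44 on GRCh37 (113 of 113 members, 9818 of all 9885). Alternatives covered scaling, pseudocount, fold limit, event minimum and omitted genes. Python 3.11.15, numpy 2.4.6, pandas 2.3.3, scipy 1.17.1, Biopython 1.88 and matplotlib 3.10.9 were used.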

Additional observations from a re-analysis of the deposited data

How the results depend on the processing

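With 1 library per line, no replicate could be left out. No paired analysis was possible because the lines carry no replicate numbers. As a share of the library total, the ratio of the members' events was 105% in A8i vs. A8 and 88.8% in A8i-B vs. A8i. With at least 2 events asked for, 67.3%, 65.5%, 62.8% and 69% of the genes counted in A8, A8i, A8i-A and A8i-B. At 3-fold, the genes higher and lower were 0 and 3 for A8i vs. A8, 3 and 2 for A8i-A vs. A8i, 3 and 2 for A8i-B vs. A8i, 3 and 5 for A8i-A vs. A8i-B, 0 and 6 for A8i-A vs. A8, and 0 and 2 for A8i-B vs. A8. The shares of all genes listed were, in the same order, 1.6% and 5.86%, 4.28% and 2.39%, 5.8% and 1.85%, 2.46% and 4.13%, 2.3% and 4.19%, and 3.03% and 3.16%, against 0 to 5.31% of the members. Among the 86 members with an event in all 4 libraries, the 2-fold numbers were 1 and 3, 6 and 2, 7 and 2, 2 and 3, 2 and 3, and 2 and 2 (1.16 to 8.14%). Of the 5986 genes with an event in all 4, 3.04% and 7.77%, 7.27% and 4.36%, 8.6% and 3.54%, 4.21% and 6.63%, 3.96% and 6.15%, and 5.13% and 5.16% passed. With events scaled to the mean library total, 5 were lower for A8i vs. A8, 4 higher for A8i-B vs. A8i, 5 lower for A8i-A vs. A8i-B, 7 lower for A8i-A vs. A8, and 0 higher and 2 lower for A8i-B vs. A8. In each of these counts, a single event against 0 could no longer pass. Scaling also breaks ties: the orders with A8 and A8i-A lowest and with A8i highest then held 17 and 49 genes (13% and 37.3% of all genes). Ties for the highest number then go to A8i, whose total is the smallest. That scaling of orders, and ratios without PRPF38B or without U2AF1L5, DDX12P and DDX11L2, were chosen after seeing the data. A pseudocount of 0.5 left all 12 counts within 1.5 times, and leaving out CPSF3L, PRPF38B, DDX11L2 with the 14 helicases of ribosome assembly and the 16 with other roles, the genes that are not protein-coding or the gene with the most events in each role kept every ratio inside its interval.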
